A study of Mus musculus with 10 samples.

Results

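The 10 genes described here, 4 of the annexin family (*Anxa1*, *Anxa2*, *Anxa3* and *Anxa5*) and 6 of the S100 family (*S100a4*, *S100a6*, *S100a8*, *S100a9*, *S100a10* and *S100a11*), were measured in livers of mice with an intact or a hepatocyte-deleted Ndrg3 gene. They were picked by symbol as a group of injury-associated genes, with earlier results of these data known. All 10 had a row among the 24052 gene symbols counted. RNA was sequenced from 10 livers of mice fed ad libitum (C57BL/6 in the labels, with the floxed line backcrossed to C57BL/6N in the methods), 5 wild-type (WT) and 5 Ndrg3 LKO, 1 library per liver. The methods take the RNA from livers also used for metabolite measurement and give the age of those mice as 8 to 10 weeks, while another place in the study gives a later age. Ndrg3 LKO mice are homozygous for a floxed *Ndrg3* allele. They lose its exon 4 wherever a Cre recombinase under the albumin promoter is active, which targets hepatocytes. Whether the other cells of the liver keep the gene was not measured here. The controls were littermates described as wild-type, and whether they carried floxed alleles is not given in the sources used here.

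Annexins are proteins that bind negatively charged phospholipids when calcium rises, and they gather at the inner face of the plasma membrane at sites of damage, exocytosis and endocytosis. S100 proteins are small calcium-binding dimers of the EF-hand type, and several of them work by docking onto an annexin. Annexin A2 pairs with S100A10 in a heterotetramer that links membranes to actin and binds plasminogen at the cell surface, and annexin A1 binds S100A11. S100A8 and S100A9 together form calprotectin, an abundant protein of the neutrophil cytosol that acts as a danger signal once released. In a healthy liver most annexin and S100 transcripts are found more in bile duct, mesenchymal, endothelial and blood-derived cells than in hepatocytes. In whole tissue, fewer cells of a type and less RNA per cell cannot be told apart.

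The S100 members lie on chromosome 3 of mm9 (the NCBIM37 assembly), in 2 groups. *S100a4* (90407692 to 90409967), *S100a6* (90416816 to 90418336), *S100a8* (90472993 to 90473956) and *S100a9* (90496554 to 90499643, minus strand) belong to a dense cluster whose span from *S100a1* to *S100a9* is 185 kb. *S100a11* (93324410 to 93330209) lies 2825 kb further on, with *S100a10* (93359002 to 93368565) 28.8 kb beyond it. *Anxa5* is on the same chromosome (36347847 to 36374765, minus strand), while *Anxa1* is on chromosome 19 (20447918 to 20465434, minus strand), *Anxa2* on chromosome 9 (69301427 to 69339602) and *Anxa3* on chromosome 5 (97222404 to 97274987). In the GENCODE annotation of this assembly *Anxa2* is overlapped by Gm16144 on the opposite strand and by CT009708.1 on its own, so its counts could hold reads of those genes. No other member overlaps an annotated gene.

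A RefSeq promoter sequence of the GRCm38.p6 build was at hand for 8 members, all but *Anxa3* and *S100a10*. Each covers 250 bases before and 50 bases after the start site. The AP-1 motif TGANTCA, the recognition sequence of the Fos and Jun factors, was searched on both strands and occurred in 7.81% of the 32851 promoters of this length and in 2 of the 8 members, *S100a11* and *Anxa2*. The TEAD motif GGAATG occurred in 14.7% of all promoters and in 1 member, *Anxa1*. The C/EBP motif TTNNGCAA occurred in 10.8% and in 2 members, *Anxa1* and *S100a9*. The upstream stretches of *S100a11* and *Anxa2* are shown because both genes rose in Ndrg3 LKO livers and hold the AP-1 letters, which are in capitals. They end at the last base before the gene in the mm9 annotation, and stand on the plus strand at chr3:93520246-93520487 and chr9:69453433-69453619 of GRCm38.p6, equal to positions 93324168 to 93324409 and 69301240 to 69301426 of mm9.
*S100a11*: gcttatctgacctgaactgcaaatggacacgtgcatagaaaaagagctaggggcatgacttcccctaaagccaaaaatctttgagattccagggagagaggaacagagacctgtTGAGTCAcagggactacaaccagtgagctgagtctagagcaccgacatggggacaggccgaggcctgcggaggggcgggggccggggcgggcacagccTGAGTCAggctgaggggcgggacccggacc
*Anxa2*: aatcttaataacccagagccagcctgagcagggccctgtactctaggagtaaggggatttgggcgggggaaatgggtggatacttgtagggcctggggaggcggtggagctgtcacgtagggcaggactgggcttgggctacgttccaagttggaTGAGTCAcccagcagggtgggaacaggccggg
A match of letters is a description and does not show that a factor binds there.

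Values are CPM, the counts of a gene relative to the size of its library, after library sizes were adjusted with edgeR's TMM factors, which ranged from 0.805 to 0.917 in WT and from 0.904 to 1.36 in Ndrg3 LKO livers. Total counts were between 20872262 and 24747870 per WT liver and between 23474693 and 30450057 per Ndrg3 LKO liver, and 3 counts, taken as the smallest signal, correspond to between 0.0727 and 0.179 CPM on this scale. *Ndrg3* itself fell in every Ndrg3 LKO liver (18.5 ± 2.22 CPM in WT and 8.06 ± 0.76 in LKO, SD, n = 5 each; log2 fold change -1.20, edgeR adjusted p = 3.87e-05). One library stood apart: on the first principal component, with 68.7% of the variance, Ndrg3 LKO replicate 5 was at 14.1, the other 4 Ndrg3 LKO livers were between 51.1 and 56.6, and WT livers were between -49.9 and -43. Results are therefore also given without it. Figure legends of the study give 5 wild-type and 4 Ndrg3 LKO livers for its RNA and metabolite data. They do not say which Ndrg3 LKO liver is absent. The summed level of 12 hepatocyte markers was between 140151 and 186060 CPM in WT livers, between 41968 and 51566 in the other Ndrg3 LKO livers and 164444 in Ndrg3 LKO replicate 5.

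All 4 annexins and *S100a11* rose in Ndrg3 LKO livers, between 2.15-fold and 4.71-fold in mean CPM. *S100a10*, the most abundant S100 member, and *S100a6* did not pass the test, and *S100a4*, *S100a8* and *S100a9* were too scarce for it. The minimum of 1 CPM in 5 or more livers, which a gene needed to be tested, was met by 7 members. *Anxa1*, *Anxa3* and *S100a6* reached 1 CPM in 4, 3 and 3 WT livers and met it only with the 5 Ndrg3 LKO livers counted. The share called among tested members therefore depends in part on their level in Ndrg3 LKO livers. Of the 7, 5 were called higher and 0 lower by edgeR's quasi-likelihood test at an adjusted p of 0.05. Among all 11208 genes tested, 25.6% were called higher and 23.0% lower. Every Ndrg3 LKO liver lay above every WT liver for 4 of the 10 members, *Anxa2*, *Anxa3*, *Anxa5* and *S100a11*, where 12.5% of all 17746 genes with any count did. Without Ndrg3 LKO replicate 5 the same 5 members were called higher, against 28.0% of genes. The median log2 fold change of the 7 tested members was 1.56, and that of all tested genes was 0.031. Because the 10 genes were chosen with earlier results of these data known, these contrasts with all genes are descriptions and not tests.

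**Figure D1:**
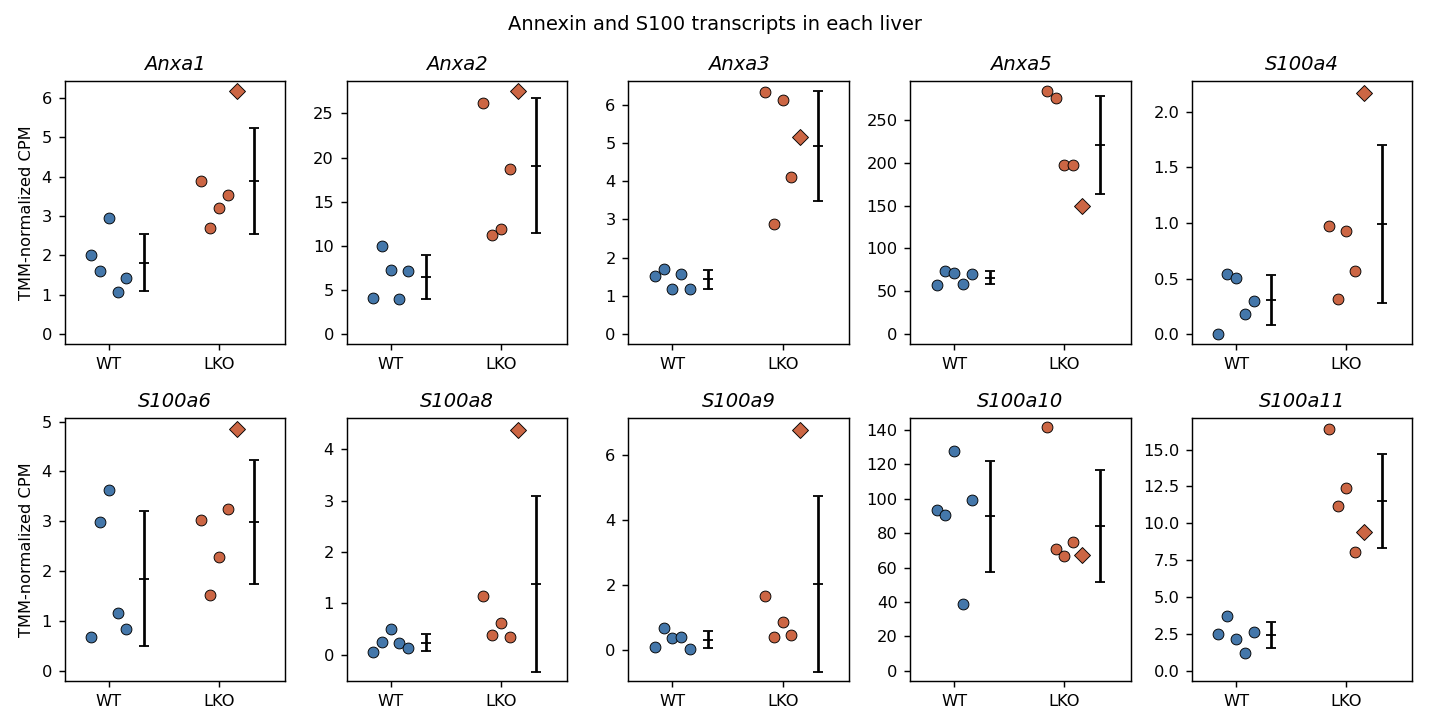
TMM-normalized CPM of each gene (y axis, linear, own scale per panel) in WT (blue) and Ndrg3 LKO (orange) livers; each point is 1 liver, the diamond is Ndrg3 LKO replicate 5 and the bars give mean ± SD (n = 5). The groups are apart for Anxa2, Anxa3, Anxa5 and S100a11, they overlap for the other genes, and the diamond stands far above the rest for S100a8 and S100a9.

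*Anxa5*, whose protein binds exposed phosphatidylserine and is the usual probe for dying cells, was the most abundant annexin of the 4. It had 57.2, 73.1, 71.6, 58.0 and 69.9 CPM in WT replicates 1 to 5, and 284, 276, 197, 197 and 150 CPM in Ndrg3 LKO replicates 1 to 5. The lowest Ndrg3 LKO liver was thus about 2-fold above the highest WT liver, and it was replicate 5. On the log2 scale it rose by 1.74 (SE 0.19, adjusted p = 3.78e-05 by edgeR), and by 1.88 without replicate 5. Counts per liver ran from 1019 to 1497 in WT and from 3181 to 11381 in Ndrg3 LKO livers, so counting error is small beside the spread between livers.

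*Anxa2*, the partner of S100A10 and a receptor for plasminogen and its activator, was at 4.04, 9.96, 7.24, 4.0 and 7.14 CPM in WT livers. In Ndrg3 LKO livers it was at 26.2, 11.2, 11.9, 18.7 and 27.5 CPM. The groups did not overlap, but Ndrg3 LKO replicates 2 and 3 were close to WT replicate 2. It rose by 1.56 on the log2 scale (SE 0.33, adjusted p = 0.00232 by edgeR), and by 1.42 without Ndrg3 LKO replicate 5.

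*Anxa3*, best known from neutrophil granules and from liver progenitor cells, was scarce in WT livers, at 1.52, 1.71, 1.17, 1.56 and 1.19 CPM. It reached 6.32, 2.88, 6.13, 4.10 and 5.14 CPM in Ndrg3 LKO livers. Each of these was above the WT range, with replicate 2 nearest to it. The rise was 1.77 on the log2 scale (SE 0.25, adjusted p = 2.07e-04 by edgeR), and 1.78 without replicate 5.

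*Anxa1*, an inhibitor of inflammation that acts through formyl peptide receptors, had 2.02, 1.61, 2.95, 1.06 and 1.43 CPM in WT livers. The Ndrg3 LKO values were 3.88, 2.69, 3.19, 3.53 and 6.17 CPM. WT replicate 3 lay above Ndrg3 LKO replicate 2, so the groups overlapped by 1 liver on each side. *Anxa1* had the smallest log2 fold change of the 4 annexins, 1.10 (SE 0.30, adjusted p = 0.0110 by edgeR), and 0.90 without Ndrg3 LKO replicate 5 (edgeR adjusted p = 0.0152).

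*S100a11*, the calcium-dependent partner of annexin A1, showed the largest log2 fold change of the 7 tested members by edgeR (with quantile normalization and limma it was 1.78, and *Anxa5* 1.89). Its WT values were 2.47, 3.71, 2.17, 1.24 and 2.62 CPM, and its Ndrg3 LKO values were 16.4, 11.2, 12.4, 8.06 and 9.43 CPM. The 2 groups were well apart, with the lowest Ndrg3 LKO liver (replicate 4) at more than 2-fold the highest WT liver. Its rise came to 2.24 on the log2 scale (SE 0.28, adjusted p = 1.01e-04 by edgeR), and to 2.32 without replicate 5.

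*S100a10*, whose product is unusual among S100 proteins in holding its shape without calcium, lies next to *S100a11* and did not follow it. Its CPM was 93.4, 90.5, 128, 38.7 and 99.2 in WT livers and 142, 70.7, 66.8, 75.0 and 67.1 in Ndrg3 LKO livers. The lowest liver of all was WT replicate 4 and the highest was Ndrg3 LKO replicate 1, so the WT range covered 4 of the 5 Ndrg3 LKO livers. Its log2 fold change of -0.092 did not pass the test (SE 0.30, 95% confidence interval -0.74 to 0.55, adjusted p = 0.815 by edgeR). The point estimates of the 4 annexins lie above this interval, while smaller changes in either direction lie inside it.

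*S100a6*, found in mesenchymal and proliferating cells, was at 0.674, 2.98, 3.62, 1.15 and 0.833 CPM in WT livers, a range of more than 5-fold. In Ndrg3 LKO livers it was at 3.02, 1.53, 2.29, 3.25 and 4.86 CPM. WT replicates 2 and 3 lay among the Ndrg3 LKO livers. Its log2 fold change of 0.67 did not pass the test (SE 0.47, 95% confidence interval -0.34 to 1.69, edgeR adjusted p = 0.248).

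**Figure D2:**
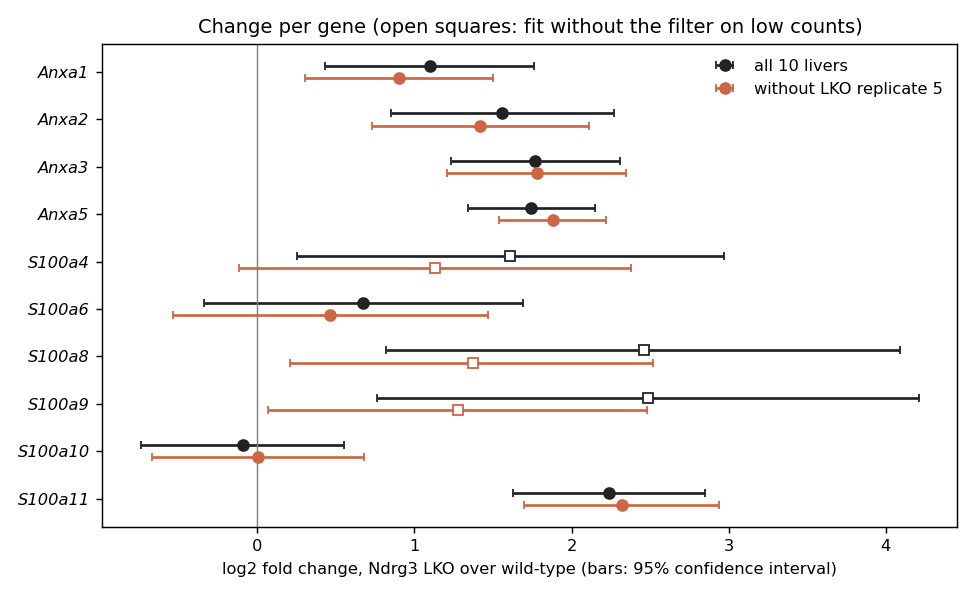
Log2 fold change, Ndrg3 LKO over WT (x axis), of each gene with its 95% confidence interval, for all 10 livers (black) and without Ndrg3 LKO replicate 5 (orange); filled circles are from the fit of genes passing the filter and open squares from the fit without it. S100a11 is furthest to the right among the circles, S100a10 straddles 0, and the intervals of S100a8 and S100a9 are wide and move left without replicate 5.

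*S100a8*, *S100a9* and *S100a4* never reached 1 CPM of unadjusted library size in any WT liver, and did so in 2, 3 and 3 Ndrg3 LKO livers. In WT replicates 1 to 5, 1, 5, 9, 5 and 2 reads were counted for *S100a8*, and in Ndrg3 LKO replicates 40, 16, 24, 12 and 93. *S100a9* had 2, 14, 7, 9 and 1 counts in WT livers and 58, 17, 34, 17 and 144 in Ndrg3 LKO livers. For both genes Ndrg3 LKO replicate 5 was by far the highest liver, and replicates 2 and 4 lay inside the WT range in CPM. In CPM, *S100a8* was at 4.38 in replicate 5 and between 0.342 and 1.15 in the other Ndrg3 LKO livers, against 0.0561 to 0.501 in WT livers. *S100a9* was at 6.79 in replicate 5 and between 0.412 and 1.67 in the others, against 0.0595 to 0.684 in WT livers.

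In a fit of all 17746 genes without the filter on low counts, where 18.5% of genes were called higher, 7 of the 10 members were. *S100a8* (log2 fold change 2.46, edgeR adjusted p = 0.0225) and *S100a9* (2.49, edgeR adjusted p = 0.0273) were among them. Without Ndrg3 LKO replicate 5 that number was 5, against 20.8% of genes, and the log2 fold changes were 1.37 (edgeR adjusted p = 0.0571) and 1.28 (edgeR adjusted p = 0.0866). The call was also lost without WT replicate 1 or 5 for *S100a8* (edgeR adjusted p = 0.0545 and 0.0503) and without WT replicate 1, 3 or 5 for *S100a9* (0.0649, 0.0519 and 0.0581, edgeR). In 2-sided exact permutation tests over livers, run for the 10 members, p without adjustment was 0.0317 for *S100a8* and 0.0476 for *S100a9*. By the same test it was 0.00794 for *Anxa2*, *Anxa3*, *Anxa5* and *S100a11*, 0.0159 for *Anxa1*, 0.159 for *S100a6* and 0.913 for *S100a10*.

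*S100a4*, a marker of fibroblasts and of some macrophages, had 0, 11, 9, 4 and 5 counts in WT livers. It had 34, 13, 36, 20 and 46 counts in Ndrg3 LKO livers, again with the most in replicate 5. In CPM, Ndrg3 LKO replicate 2, at 0.315, lay inside the WT range of 0 to 0.537. Its log2 fold change of 1.61 did not pass the test without the filter (edgeR adjusted p = 0.0632), while the exact permutation test gave p = 0.0317; without Ndrg3 LKO replicate 5 it was 1.13 (edgeR adjusted p = 0.14). Of the 10 fits with 1 liver left out, it passed in 1, without Ndrg3 LKO replicate 2 (1.84, edgeR adjusted p = 0.0308).

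Within the Ndrg3 LKO group the members did not rank the livers alike. Ndrg3 LKO replicate 5 held the highest value of the 5 for 6 of the 10 members, *Anxa1*, *Anxa2*, *S100a4*, *S100a6*, *S100a8* and *S100a9*. It held the lowest for *Anxa5* and the second lowest for *S100a10* and *S100a11*. Over all 11208 tested genes, this liver was the highest of the 5 for 31.8% and the lowest for 30.3%, and among the 2865 genes called higher in Ndrg3 LKO livers these shares were 11.2% and 47.5%. Of the 6 members, 2 (*Anxa1* and *Anxa2*) are among the genes called higher. Relative to the WT mean, *Anxa5* was 2.27-fold in replicate 5 and between 2.98-fold and 4.31-fold in the other 4, whereas *S100a8* was 19.1-fold in replicate 5 and between 1.49-fold and 5.0-fold in the others, and *S100a9* was 20.5-fold and between 1.24-fold and 5.03-fold. The low WT counts make the last 2 sets of folds imprecise.

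**Figure D3:**
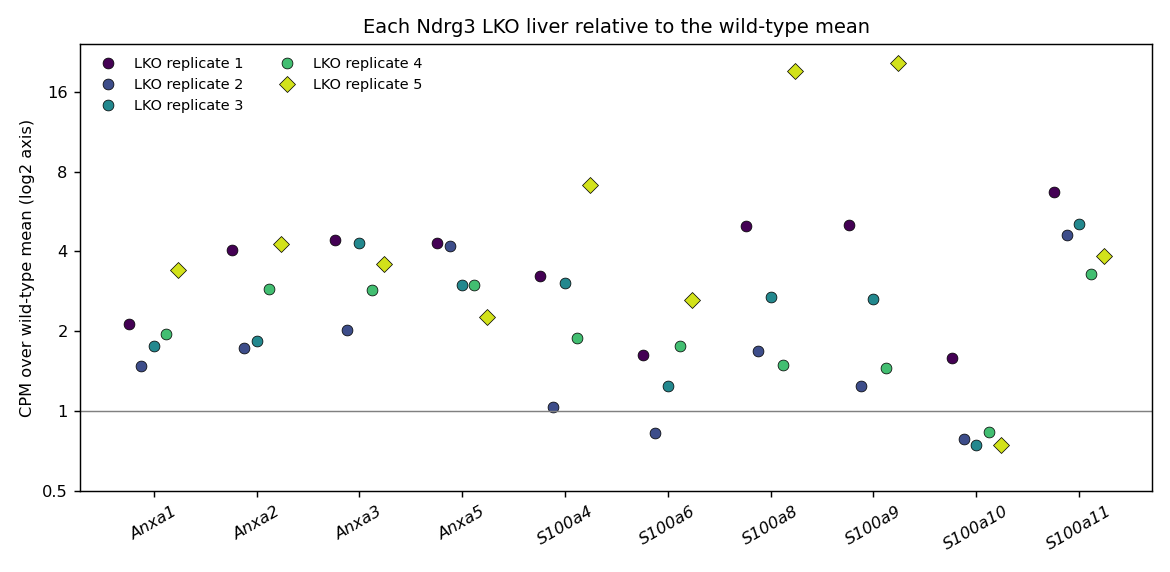
CPM of each gene in the 5 Ndrg3 LKO livers divided by the WT mean (y axis, log2 scale); circles are replicates 1 to 4 and the diamond is replicate 5. The diamond is the highest point for 6 genes, at 19.1 and 20.5 for S100a8 and S100a9, and the lowest for Anxa5 at 2.27.

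Levels can be compared between genes, roughly, once divided by the length of all their annotated exons. That length was 3731 bases for *Anxa2* and 511 for *S100a11*. The order below, and which ranges overlap, can depend on this choice of length. Per kb of exon, *S100a10* was the most abundant member in WT livers (74.2 ± 26.6 CPM per kb, SD, n = 5), and *Anxa5* came next (39.3 ± 4.6), with overlapping ranges. *S100a11* (4.78 ± 1.74) followed without overlap with *Anxa5*. Then came *S100a6* (2.57 ± 1.88), *Anxa2* (1.74 ± 0.674), *Anxa3* (0.895 ± 0.150), *Anxa1* (0.695 ± 0.278), *S100a9* (0.636 ± 0.485), *S100a8* (0.587 ± 0.435) and *S100a4* (0.518 ± 0.381), each overlapping its neighbour in this order. In Ndrg3 LKO livers the first place passed to *Anxa5* (132 ± 34.2 CPM per kb), with *S100a10* at 69.6 ± 26.7 and again an overlap of the ranges. *S100a11* followed at 22.5 ± 6.25 and then *Anxa2* at 5.12 ± 2.06, neither overlapping the gene before it. The remaining 6 members were between 4.16 (*S100a6*) and 1.49 (*Anxa1*) CPM per kb, and neighbours among them overlapped.

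The question whether partners moved together was put to 3 pairs, with the ratio of their counts in each liver, which does not depend on scaling between libraries. For *S100a10* to *Anxa2*, the count ratio was 23.1, 9.08, 17.7, 9.69 and 13.9 in WT livers and 5.41, 6.33, 5.6, 4.02 and 2.44 in Ndrg3 LKO livers. The 2 ranges were apart, with all 5 Ndrg3 LKO livers lowest. The mean log2 ratio differed by -1.61 (3.79 ± 0.57 in WT and 2.18 ± 0.55 in LKO, SD, n = 5 each; exact permutation p = 0.00794, 2-sided and as small as 5 against 5 livers allow, and 0.0238 after Benjamini-Hochberg adjustment over the 3 pairs). Without Ndrg3 LKO replicate 5 the difference was -1.39 (exact permutation p = 0.0159). Per kb of exon, *S100a10* transcripts outnumbered those of *Anxa2* by 28.0 to 71.1 in WT livers and by 7.5 to 19.5 in Ndrg3 LKO livers. The *S100a10* transcript thus remained in excess in every liver. The size of the excess depends on counting all annotated exons as length, and protein was not measured.

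For *S100a11* to *Anxa1* the direction was opposite. The count ratio was 1.22, 2.30, 0.736, 1.17 and 1.83 in WT livers and 4.22, 4.18, 3.89, 2.28 and 1.53 in Ndrg3 LKO livers. Ndrg3 LKO replicates 1 to 3 lay above all WT livers, and replicates 4 and 5 lay within the WT range. The mean log2 ratio was higher by 1.15 in Ndrg3 LKO livers (2-sided exact permutation test, p = 0.0397), which did not remain under 0.05 after adjustment over the 3 pairs (adjusted exact permutation p = 0.0595). For *S100a8* to *S100a9*, the partners in calprotectin, the log2 ratio was -0.37 ± 0.88 in WT livers and -0.44 ± 0.21 in Ndrg3 LKO livers (SD, n = 5 each), a difference of -0.075 (exact permutation p = 0.881). The WT spread rests on few counts. In the Ndrg3 LKO livers, where counts were higher, *S100a8* was between 0.647 and 0.943 of *S100a9* in counts.

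**Figure D4:**
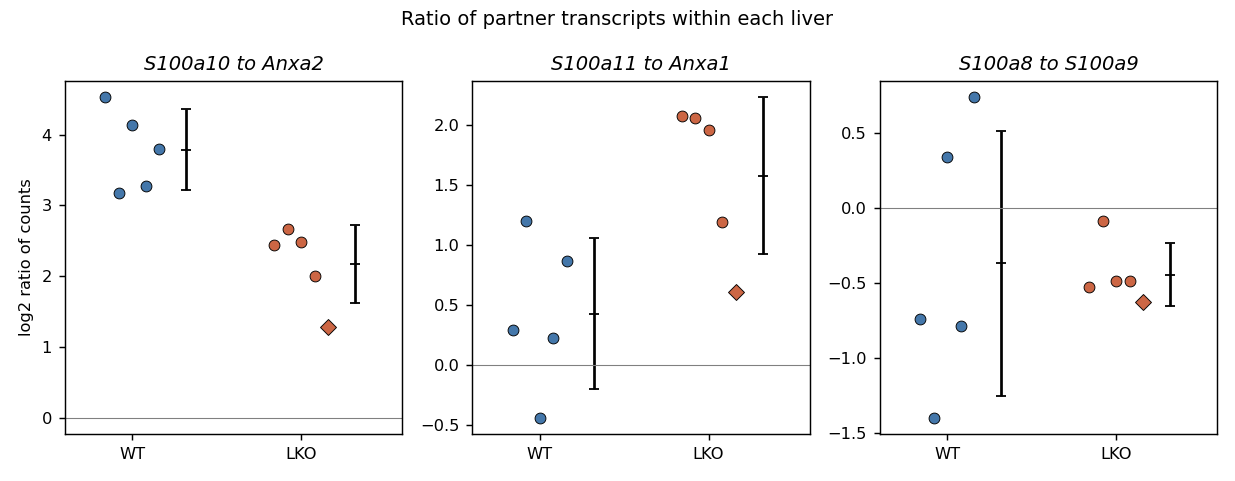
Log2 ratio of counts (y axis) within each liver for 3 pairs of partner genes in WT (blue) and Ndrg3 LKO (orange) livers; points are livers, the diamond is Ndrg3 LKO replicate 5 and bars are mean ± SD (n = 5). The groups are apart for S100a10 to Anxa2, overlap partly for S100a11 to Anxa1, and for S100a8 to S100a9 the LKO livers lie within the WT range.

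Of the 8 other annexin genes, 4 were tested and only *Anxa4*, an epithelial annexin, was called higher (40.3 ± 4.95 CPM in WT and 66.6 ± 13.6 in LKO, SD, n = 5 each; log2 fold change 0.73, edgeR adjusted p = 0.00343). *Anxa6* (log2 fold change 0.036), *Anxa7* (0.27) and *Anxa11* (-0.18) did not pass the test, and *Anxa8*, *Anxa9*, *Anxa10* and *Anxa13* had mean levels of at most 1.17 CPM in either group. Of the 10 other S100 genes listed, 3 were tested, *S100a1* (log2 fold change 0.093), *S100a13* (-0.072) and *S100a16* (0.43), and none of these 3 passed (edgeR adjusted p = 0.725, 0.865 and 0.155). These 3 lie in the chromosome 3 cluster, as do *S100a3*, *S100a5* and *S100a7a*, which had 0 counts in all 10 livers. *S100z* was also at 0, and *S100a14* and *S100b* had at most 5 counts in any liver. *S100g*, an X-linked calcium carrier of the intestine, was scarce (0.0557 to 0.195 CPM in WT and 0.291 to 2.96 in LKO livers) and was called higher without the filter (log2 fold change 3.26, edgeR adjusted p = 0.00306), though *Ctps2* overlaps it.

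Genes that act with the members were taken from 3 lists. Of 7 receptors of the secreted members, 3 were tested and 2 rose: *Fpr1*, a formyl peptide receptor through which annexin A1 signals (log2 fold change 1.28, edgeR adjusted p = 0.0312), and *Cd36*, a scavenger receptor (1.10, edgeR adjusted p = 0.0397). *Cd36* was at 1.02 without Ndrg3 LKO replicate 5, which ended its call (edgeR adjusted p = 0.0550). Without the filter, *Tlr4* (0.98, edgeR adjusted p = 0.0273) and *Emb* (2.43, edgeR adjusted p = 0.00288), both receptors for S100A8 or S100A9, were also called higher at mean levels of at most 1.12 CPM, and *Ager* was not called (-0.31).

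Of the 7 genes of the plasminogen system and of annexin A2 partners, 3 were tested. *Plg*, for plasminogen itself, fell from 2997 ± 314 to 1024 ± 612 CPM (SD, n = 5 each; log2 fold change -1.55, edgeR adjusted p = 0.00250), and *Dysf*, for the membrane repair protein dysferlin, rose (1.08, edgeR adjusted p = 0.00222). *Ahnak*, a scaffold of the annexin A2 complex, did not pass the test (-0.084). Without the filter, the plasminogen activators *Plat* (1.70, edgeR adjusted p = 0.0205) and *Plau* (2.18, edgeR adjusted p = 0.0221) and the receptor *Plaur* (1.19, edgeR adjusted p = 0.0219) were called higher, each at mean levels of at most 1.66 CPM. *Plau* was at 4.53 CPM in Ndrg3 LKO replicate 5, and without that liver its fold in mean CPM went from 4.89 to 2.78 (log2 fold change 1.41, edgeR adjusted p = 0.0499).

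Of 12 genes for membrane repair and actin, which include *Dysf* and *Ahnak* again, 11 were tested and 7 rose, with a median log2 fold change of 0.79 over the 11. The 7 were *Actg1* (log2 fold change 2.69), *Myof* (1.21), *Dysf* (1.08), *Myh9* (0.99), *Vim* (0.97), *Actb* (0.79) and *Cttn* (0.34), with edgeR adjusted p between 6.71e-05 and 0.04. *Actg1* and *Actb* have near-identical copies, so their counts are uncertain. Without Ndrg3 LKO replicate 5, 9 of the 11 were called higher and 1, *Capn1*, lower.

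With TMM, markers of macrophages, stellate cells and endothelial cells were mostly called higher, and hepatocyte markers were called lower or not at all. The part of either in the results above was not tested. All 11 macrophage markers rose, and their summed level was between 112 and 298 CPM in WT livers and between 248 and 803 in Ndrg3 LKO livers, highest in replicates 1 and 3 (347 in replicate 5). Of 10 stellate cell and fibroblast markers 7 rose (summed level 120 to 187 CPM in WT and 258 to 341 in LKO livers), and of 8 endothelial markers 7 rose (73.8 to 91.9 and 143 to 185 CPM). Of 8 cholangiocyte markers 6 were tested, *Spp1* rose, *Sox9* fell and the defining keratins *Krt19* and *Krt7* did not pass the test (summed level 42.2 to 74.2 CPM in WT and 52.3 to 224 in LKO livers). Most of that sum was *Spp1*, with means of 41.9 CPM in WT and 101 in LKO livers, where the sum had means of 53.5 and 113. None of the 3 tested of 6 mesothelial markers passed (1.61 to 10.4 and 4.54 to 6.95 CPM). Of 12 hepatocyte markers 8 fell, *Alb* among them, and 0 rose. With library-size scaling 7 of the 12 were called lower and 2 higher. In the fit without the filter, 4 of 5 monocyte markers (0.551 to 1.28 and 1.65 to 6.82 CPM) and 4 of 8 T, NK and B cell markers (1.24 to 2.78 and 2.37 to 10.4 CPM) were called higher. Without Ndrg3 LKO replicate 5, the calls of macrophage, stellate and endothelial markers numbered 11, 7 and 7 as before, those of T, NK and B cell markers 2, and those of cholangiocyte markers 2 higher and 1 lower.

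Of 10 neutrophil markers listed, 9 had a row, and their summed level was 0.73, 1.66, 0.557, 0.735 and 0.417 CPM in WT livers and 2.76, 0.606, 2.16, 1.2 and 7.45 CPM in Ndrg3 LKO livers. The order of the 5 Ndrg3 LKO livers by this sum, from replicate 5 through 1, 3 and 4 to 2, was that of *S100a9*, and for *S100a8* only the lowest 2 changed places. Among WT livers the order of *S100a8* differed, as it was highest in replicate 3, where the sum was the lowest but one. That of *S100a9* was the order of the sum, except that replicates 1 and 3 changed places. The WT order of *S100a9* rests on 1 to 14 counts per liver. WT replicate 2 came first in the marker sum mostly through 25 counts of *Ltf*, with 1 count of *Cxcr2* and 7 of *Csf3r*. The likeness of the 2 WT orders therefore leans on a single marker. The defining neutrophil receptor *Cxcr2* had between 0 and 1 counts in WT livers and 14, 4, 12, 1 and 2 counts in Ndrg3 LKO livers. *Csf3r*, the receptor for the granulocyte growth factor, had 62, 17, 53, 26 and 20 counts in Ndrg3 LKO livers and between 5 and 11 in WT livers. Replicate 5 was thus not the highest for these 2 receptors. It was the highest for genes of granule proteins, which neutrophils transcribe early in their development: *Camp* had 32 counts there and at most 2 in any other liver, *Ngp* 29 and at most 2, and *Mpo* 21 and at most 3. *Ltf*, another of them, had 26 counts there and 25 in WT replicate 2. In the fit without the filter, 3 of the 9 markers were called higher (2 without Ndrg3 LKO replicate 5). Their part in the values of *S100a8* and *S100a9* was not tested.

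**Figure D5:**
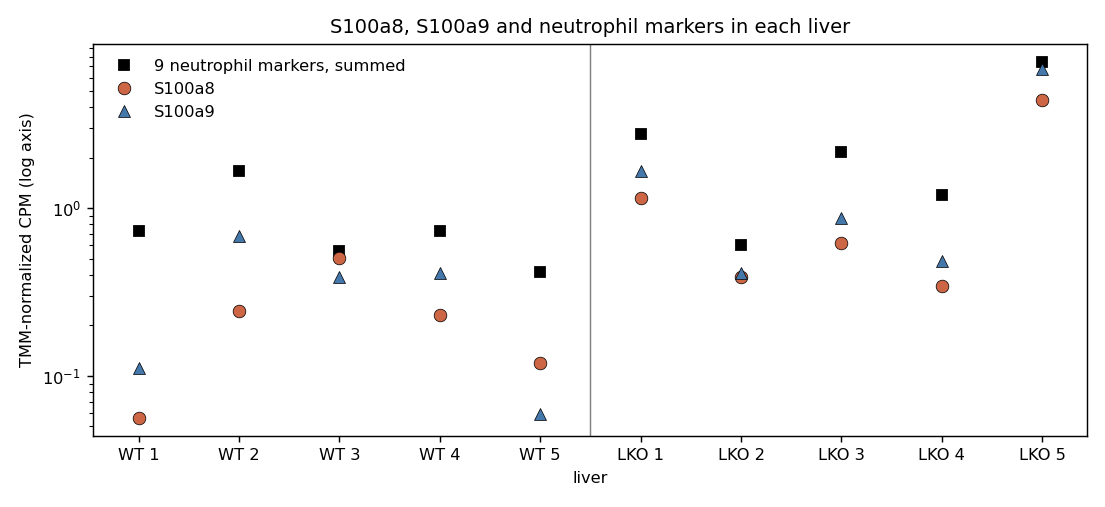
TMM-normalized CPM (y axis, log scale) of S100a8, S100a9 and the sum of 9 neutrophil markers in each of the 5 WT and 5 Ndrg3 LKO livers (x axis); each symbol is 1 liver, without error bars. All 3 are highest in Ndrg3 LKO replicate 5 (4.38, 6.79 and 7.45 CPM), and Ndrg3 LKO replicate 2, with the marker sum at 0.606, lies among the WT livers.

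Library-size scaling moved the number of members called higher from 5 to 6. The filter on low counts moved it further, to 7 of 10 without it and to 3 of 4 with a mean CPM of at least 5. TMM left the median of all tested genes at 0.031, and division by library size alone moved it to 0.56. On that scale 6 of the 7 tested members were called higher, *S100a6* being added (log2 fold change 1.14, edgeR adjusted p = 0.0358), but 51.9% of all genes were too. *S100a10* was at 0.45 there, below the median of all genes, and the 5 members called with TMM were between 1.58 (*Anxa1*) and 2.79 (*S100a11*). Other annexins called numbered 3 of 4 on that scale, and members without overlap between the groups 6 of 10, *Anxa1* and *S100a8* being added, where 24.1% of all genes with any count had none in this direction.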

How the data were processed

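Libraries were made from liver RNA with a stranded mRNA kit and sequenced as paired-end reads. Alignment to mm9 and counting by gene were done by the authors in STAR. The deposited tables hold whole-number counts for each gene symbol, although they are named for CPM. The submitters' processing notes list STAR 2.7.3a, Trim Galore 0.6.4 and Cufflinks 2.2.1. The annotation and the strand setting of the counting are not given in the sources used here. The methods name another STAR version, and describe the livers as taken from different mice.

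Counts were analysed in R 4.3.3 with edgeR 4.0.16 (TMM, quasi-likelihood test, Benjamini-Hochberg adjustment over all genes tested, threshold 0.05). Genes with at least 1 CPM, by unadjusted library size, in at least 5 livers were tested. Standard errors (SE) were taken from the size of each fold change and its F statistic. Alternatives were DESeq2 1.42.0, limma 3.58.1 on log2(CPM + 1), quantile normalization, median-of-ratios and library-size scaling, no filter, a mean CPM of at least 5, the replicate number as a block and each liver left out. Fits that join 2 of these choices were added after seeing the data. Exact permutation tests were 2-sided, on log2(CPM + 1) or on log2 ratios (0.5 added to *S100a8* and *S100a9* counts). Their p was adjusted for the ratios, over the 3 pairs, and not for single genes. Exon length is the union of exons in GENCODE. The limits of 3 counts cover counting error only. Within groups, pairs of livers differed by more than sampling noise (chi-square per degree of freedom 27.5 to 479). The tests were tried on simulated counts first.

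The 10 genes and all lists were chosen with earlier results of these data known. By the rule, all members and the other listed annexin and S100 genes were named by their call, and genes past the threshold in the receptor, plasminogen and membrane repair lists could be named; marker lists were given as counts and sums. *S100a2*, outside the list, had 0 counts. *Ager*, *Ahnak*, *Capn1* and the neutrophil, cholangiocyte and hepatocyte markers named singly were chosen after their values were seen. *Adgre1* was read from its older symbol Emr1, and *Ly6g* was not analysed here.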

Additional observations from a re-analysis of the deposited data

Results flagged for a closer look

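Of 46 sets of 5 livers examined, 7 held a liver whose gap to its nearest neighbour exceeded Dixon's 95% critical value of 0.71 of the range, and chance gives about 1 in 20. In Ndrg3 LKO replicate 5, *S100a8* was at 4.38 CPM (gap 0.8 of the range) and *S100a9* at 6.79 CPM (0.803), and the hepatocyte markers summed to 164444 CPM (0.922). *S100a10* was at 142 CPM in Ndrg3 LKO replicate 1 (0.891). The log2 ratio of *S100a8* to *S100a9* was -0.085 in Ndrg3 LKO replicate 2 (0.737). Among WT livers, neutrophil markers summed to 1.66 CPM in replicate 2 (0.744), of which most were the 25 *Ltf* counts, and mesothelial markers to 10.4 CPM in replicate 3 (0.732).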

How the results depend on the processing

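*Anxa1*, *Anxa2*, *Anxa3*, *Anxa5* and *S100a11* kept their direction and their call in all fits that tested them, 17 or 18 alternatives each, with the highest adjusted p at 0.0332 for *Anxa1* (quantile normalization with limma). The count of members called was 5 and moved to 3 with a mean CPM of at least 5, since only 4 members were then tested. With each liver left out it stayed at 5, and the count over all genes, 5443, lay between 4431 and 5962. Library-size scaling changed the split of all calls from 2865 higher and 2578 lower to 5821 and 1010. *S100a10* turned its sign with library-size scaling (0.45), quantile normalization (0.089), without WT replicate 3 (0.065) and without Ndrg3 LKO replicate 5 (0.0049), and passed the test in none of these (lowest -0.33 and highest 0.065 with a liver left out); the cause was not tested. *Ndrg3* ran from -1.24 to -0.67 over all alternatives, and from -1.24 to -1.12 with a liver left out.

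With a liver left out, the log2 ratio difference of *S100a10* to *Anxa2* lay between -1.76 and -1.39. That of *S100a11* to *Anxa1* lay between 0.93 and 1.39, with an exact permutation p of 0.0794 without WT replicate 1, 3 or 4 or Ndrg3 LKO replicate 1, 2 or 3. That of *S100a8* to *S100a9* lay between -0.33 and 0.20, positive without WT replicate 3 (0.10) or 5 (0.20). Both groups carry replicate numbers 1 to 5, but livers of the same number did not deviate together (correlations across genes from -0.357 to 0.0363). Whether they shared a litter or a batch is not given in the sources used here and was not tested. The replicate block changed no call among the 7 members tested with it (5 called; *S100a4*, *S100a8* and *S100a9* were not in that fit) and gave 4412 genes in all; it left 0 of the 3 tested receptors and 8 of the 11 macrophage markers called. For the ratios, the replicate block left the differences at -1.61 and 1.15 with an exact sign-flip p of 0.0625, the smallest possible for 5 pairs, and 0.125. Genes under about 1 CPM, among them *S100a4*, *S100a8* and *S100a9*, are limited by depth.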
